A study of Homo sapiens with 2 samples.

Results

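The genes described here are 10 components of signalling by the secreted ligand WNT5A, of the 18417 that could be measured in HT1080, a line grown from a human fibrosarcoma. They are WNT5 ligands (WNT5A and WNT5B), receptors (ROR1, ROR2, RYK, FZD2, FZD7 and LRP6) and antagonists (DKK1 and AXIN2), and they were chosen by their place in the pathway with the difference between these 2 arrays already known. All 10 were found. The rLCC111 cells were kept for 24 h in wells coated with rLCC111, a recombinant heterotrimer of the coiled-coil region of mouse laminin alpha1, beta1 and gamma1 chains made in a human embryonic kidney line, and the control cells for 24 h in wells coated with BSA (bovine serum albumin). Both groups were the same line, which the study cultured in medium with fetal calf serum. Each coating has 1 whole-transcript array, so each value below is a single measurement. How many wells gave the RNA of an array is not stated. The comparison asked how contact with rLCC111 changed the transcripts of these cells; because the same contrast chose the genes, their differences are a description and no p-value is given.

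WNT proteins are lipid-modified ligands that leave the cell with the help of a carrier protein and bind Frizzled receptors. In the beta-catenin branch a Frizzled and LRP5 or LRP6 receive the ligand together, and beta-catenin escapes destruction and drives target genes. WNT5A is best known for the other branches, in which Frizzleds together with ROR1, ROR2 or RYK act on cell polarity, on JNK enzymes and on calcium release, and it is known for its part in the migration of mesenchymal cells. DKK1 blocks LRP6 from outside the cell, and AXIN2 is part of the complex that destroys beta-catenin and is itself a beta-catenin target, so its mRNA is widely read as a gauge of that branch.

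Upstream sequences and a primer pair are shown because WNT5A and DKK1 had the largest differences of the 10 genes in each direction. They are the 250 bases before each of the 2 start sites that RefSeq gives for WNT5A and before the start site of DKK1, on build GRCh38.p14 and written 5′ to 3′ on the strand of the gene.
WNT5A, first window, chr3:55487307-55487556, minus strand: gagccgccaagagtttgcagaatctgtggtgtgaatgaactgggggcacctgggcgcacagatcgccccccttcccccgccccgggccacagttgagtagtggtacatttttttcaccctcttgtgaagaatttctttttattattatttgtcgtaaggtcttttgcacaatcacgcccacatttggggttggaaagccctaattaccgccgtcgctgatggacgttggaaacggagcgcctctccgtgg
WNT5A, second window, chr3:55481399-55481648, minus strand: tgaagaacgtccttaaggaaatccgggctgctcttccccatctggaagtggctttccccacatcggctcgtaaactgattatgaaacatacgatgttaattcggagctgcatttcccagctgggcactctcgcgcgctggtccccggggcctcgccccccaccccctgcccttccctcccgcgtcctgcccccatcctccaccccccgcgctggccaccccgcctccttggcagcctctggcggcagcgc
DKK1, chr10:52314031-52314280, plus strand: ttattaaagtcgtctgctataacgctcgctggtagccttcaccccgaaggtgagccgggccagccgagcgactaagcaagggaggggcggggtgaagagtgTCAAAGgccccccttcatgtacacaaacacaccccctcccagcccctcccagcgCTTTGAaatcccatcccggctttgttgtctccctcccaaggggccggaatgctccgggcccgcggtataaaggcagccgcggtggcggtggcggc
Capitals mark the core of the TCF/LEF motif, through which beta-catenin acts on its targets, spelled CTTTGA and read on both strands as CTTTGA or TCAAAG. The DKK1 window held 2 such matches, which start 149 and 95 bases before the start site, and neither WNT5A window held one. Of 35116 RefSeq windows of the same length, 11.2% held at least 1 match and 0.977% held 2 or more. The AP-1 motif TGANTCA was in none of these 3 windows and in 6.57% of all windows. RefSeq windows were found for 6 of the 10 genes, 8 windows in all, and the 5 windows of WNT5B, ROR1, ROR2 and RYK held neither motif. A match of letters is a description and the absence of one says nothing about the factor, and the array measured no binding. The study also designed 2 primers of 18 bases each to measure WNT5A mRNA by qRT-PCR; those measurements were not used here.
WNT5A forward primer: gacatcgaaggtggaact
WNT5A reverse primer: gtatgtgaaggccgtctc

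WNT5A mRNA was higher on rLCC111. Its log2 level was 9.16 on rLCC111 and 7.92 on BSA, a difference of 1.24 and a fold of 2.37. In bulk RNA, a change in the cells present and a change in RNA per cell cannot be told apart. Levels are log2 values from RMA, in which an increase of 1 is a doubling, and a difference is always rLCC111 minus BSA. With no replicate, the only yardstick within these arrays is the spread of other genes. Among the 2504 genes with a mean level between 8 and 9, the middle 95% of differences ran from -0.42 to 0.52. WNT5A lay outside that range, and 4 of these 2504 genes, WNT5A included, had a difference as large. It ranked as number 23 from the top of all 18417 genes. Both its levels were above 6.62, the limit of silent genes, set where 95% of 379 sensory receptor genes, a class assumed to be off in this line, had a lower mean level. In that class 11 genes were at least 0.5 log2 units higher on rLCC111, or 2.90% against 1.68% of all genes. None was lower by as much. The 3 genes whose pair of levels lay nearest to that of WNT5A were CEMIP, which takes part in the breakdown of hyaluronan, the export pump gene ABCC3 and the microRNA gene MIR21. CEMIP stood at 9.11 on rLCC111 and 7.93 on BSA, 0.051 log2 units away from WNT5A. RefSeq places an antisense RNA, WNT5A-AS1, over part of the WNT5A gene, and it was not measured here by a sequence of its own.

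**Figure D1:**
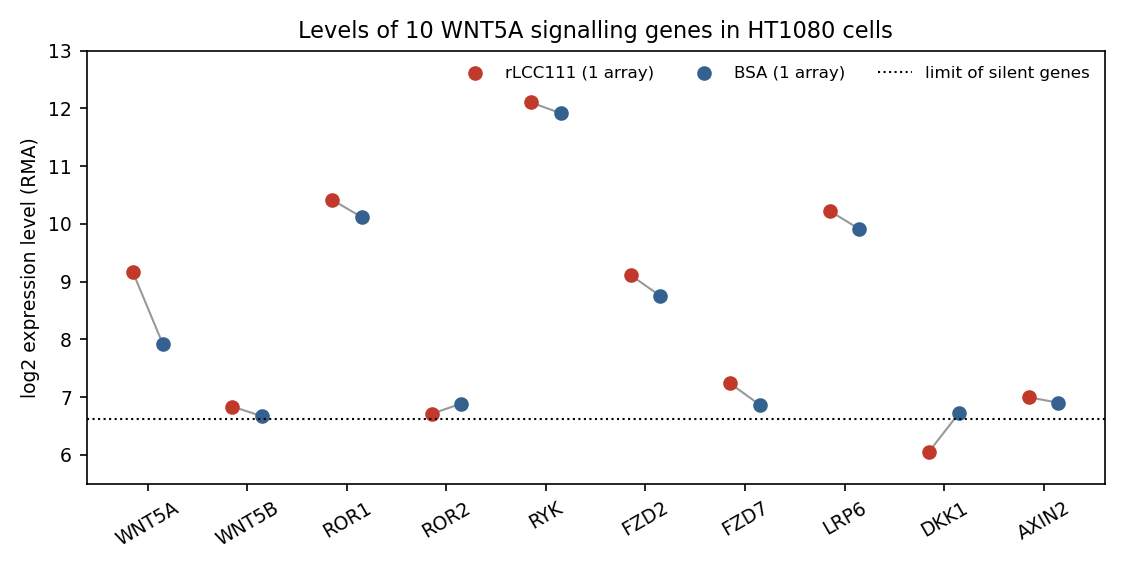
Log2 level (vertical axis, RMA) of each of the 10 genes on the rLCC111 array (red, left of each pair) and on the BSA array (blue, right), 1 array each, with the limit of silent genes at 6.62 as a dotted line. WNT5A has the widest gap, 9.16 against 7.92, and DKK1 is the gene whose rLCC111 level, 6.06, lies below the limit.

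WNT5B, the closest relative of WNT5A, stood at 6.84 on rLCC111 and 6.67 on BSA, a difference of 0.17. Both levels were within 0.22 log2 units above the limit of silent genes, and the difference was inside the middle 95% of genes between levels 6 and 7, which ran from -0.35 to 0.42. Among all 19 WNT ligand genes, WNT5A was the one at least 2-fold higher, where 0.239% of all genes were. None was at least 2-fold lower, where 0.0869% of all genes were. After WNT5A, the next 2 in size were WNT7B, at 8.86 on rLCC111 and 8.52 on BSA, and WNT7A, at 7.60 on rLCC111 and 7.31 on BSA. Their folds were 1.27 and 1.22, and each was inside the middle 95% of genes of like level. Over all ligands 11 differences were above 0, 5 below 0 and 3 equal to 0. Their median was 0.02, against 0.00 for all genes. It was -0.06 against -0.08 after median centring and -0.05 against -0.06 after quantile normalization. After removal of a lowess trend it was 0.0036 against -0.02.

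The receptor kinases that carry WNT5A signals differed little between the coatings. ROR1, an orphan-type receptor kinase that binds WNT5A, had a level of 10.42 on rLCC111 and 10.12 on BSA, a fold of 1.23. ROR2, its close relative, ran the other way, at 6.71 on rLCC111 and 6.89 on BSA, a fold of 0.884. Its levels were close to the limit of silent genes, at 0.092 above it on rLCC111 and 0.27 above it on BSA. RYK, a receptor kinase with an inactive kinase domain, was at 12.10 on rLCC111 and 11.92 on BSA, a fold of 1.14. Genes this bright varied less, and the middle 95% of the 364 genes between levels 12 and 13 ran from -0.35 to 0.19. RYK sat at the upper edge of that range, with a difference of 0.19 that 10 of the 364 genes reached or passed, RYK included.

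Both Frizzled members were slightly higher on rLCC111 and inside the range of genes of like level. FZD2, a Frizzled through which WNT5A is known to signal, was at 9.11 on rLCC111 and 8.75 on BSA, a fold of 1.29. FZD7, which is also known as a beta-catenin target, was at 7.24 on rLCC111 and 6.86 on BSA, a fold of 1.30. Its level was 0.62 above the limit of silent genes on rLCC111 and 0.25 above it on BSA. Of all 10 Frizzled genes, 5 had a difference above 0 and 5 below 0, and FZD7 and FZD2 had the largest of them upwards. FZD1 had the largest downwards, at 8.11 on rLCC111 and 8.46 on BSA, a fold of 0.781, and FZD10 had a fold of 0.852. FZD6 and FZD8, the members with the highest levels, had folds of 1.13 and 1.12. None of the 10 was 0.5 log2 units or more apart between the coatings, where 2.68% of all genes were.

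LRP6, the co-receptor of the beta-catenin branch, was at 10.23 on rLCC111 and 9.91 on BSA, a fold of 1.25, again inside the range of genes of like level, which ended at 0.37. Among all 8 co-receptor and receptor kinase genes the largest difference was that of PTK7, a pseudokinase of planar cell polarity, at 8.41 on rLCC111 and 7.92 on BSA, a fold of 1.40. MCAM, a cell surface receptor reported to bind WNT5A, was at 11.09 on rLCC111 and 11.10 on BSA. The median of these 8 genes was 0.10, and it stayed above 0 after median centring (0.02), after removal of a lowess trend (0.13) and after quantile normalization (0.11). LRP6, ROR1, ROR2 and RYK are on this list and were chosen with the contrast known, so nothing is read from its median. Of the rest, PTK7 had a difference of 0.49, inside the range of genes of like level, which ended at 0.52. LRP5, MUSK and MCAM had differences of -0.02, 0.02 and -0.01. For all genes the same medians were 0.00 as deposited, -0.08 after median centring, -0.02 after lowess and -0.06 after quantile normalization.

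DKK1 was the member that was lower by the widest margin. Its log2 level was 6.06 on rLCC111 and 6.72 on BSA, a difference of -0.66 and a fold of 0.631. The level on BSA was 0.10 above the limit of silent genes and the level on rLCC111 lay under it, at -0.56 from it, so the fold compares a dim value with one in the range of silent genes. The difference lay outside the middle 95% of the 2881 genes between levels 6 and 7, and 13 of them, DKK1 included, were as low or lower. Counted from the bottom, DKK1 was number 75 of the 18417 genes. Of 18 secreted antagonists and their receptors, DKK1 was the one with a difference of 0.5 or more in size. Such a difference was found for 2.68% of all genes. The other 17 lay between -0.19 and 0.24. Among these, SFRP5, a decoy that binds WNT ligands, had a fold of 0.877, SFRP1 had a fold of 0.965, and DKK3, which does not block LRP6 as DKK1 does, was at 9.09 on rLCC111 and 9.06 on BSA.

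AXIN2 was at 6.998 on rLCC111 and 6.90 on BSA, a difference of 0.10 and a fold of 1.07. Its level was 0.38 above the limit of silent genes on rLCC111 and 0.28 above it on BSA, so little room was left for a fall to show. The difference of AXIN2 was inside the middle 95% of genes of like level, and 23.1% of all genes had a larger difference. The difference shrank to 0.02 after median centring and 0.0087 after quantile normalization. Of the 22 beta-catenin target and feedback genes measured, AXIN2 and DKK1 among them, 11 had a difference above 0, 8 below 0 and 3 equal to 0. MYC, a growth regulator, had a fold of 0.778 and PPARD, a lipid-sensing nuclear receptor, 0.796. In the other direction, FZD7 had its fold of 1.30 and TNFRSF19, a receptor of the tumour necrosis factor family, was at 6.95 on rLCC111 and 6.66 on BSA, a fold of 1.22. The BSA level of TNFRSF19 was close to the limit of silent genes. All 4 were inside the middle 95% of genes of like level. The cyclin gene CCND1 was at 12.05 on rLCC111 and 11.996 on BSA and the hyaluronan receptor gene CD44 at 13.11 on rLCC111 and 13.10 on BSA. LEF1, a TCF/LEF factor that is also a target, had a fold of 0.866. Their median was 0.01 as deposited and -0.07 after median centring, against -0.08 for all genes.

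Across the 10 genes, 8 differences were above 0, those of WNT5A, WNT5B, ROR1, RYK, FZD2, FZD7, LRP6 and AXIN2, and 2 were below 0, those of ROR2 and DKK1. WNT5A was the 1 gene of the 10 at least 2-fold higher, where 0.239% of all genes were, and none of the 10 was at least 2-fold lower, where 0.0869% of all genes were. A difference of at least 0.5 log2 units in either direction was found for 2 of the 10, WNT5A and DKK1, and for 2.68% of all genes. The median of the 10 differences was 0.24, against 0.00 over all genes, of which 46.2% had a difference above 0. The 10 genes were picked with this contrast known, so nothing is read from these counts. WNT5A, DKK1 and, at the edge, RYK lay outside the middle 95% of genes of like level, and the other 7 lay inside. Each of the 10 was measured by 1 sequence on the array, so no difference has a second probe set beside it.

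**Figure D2:**
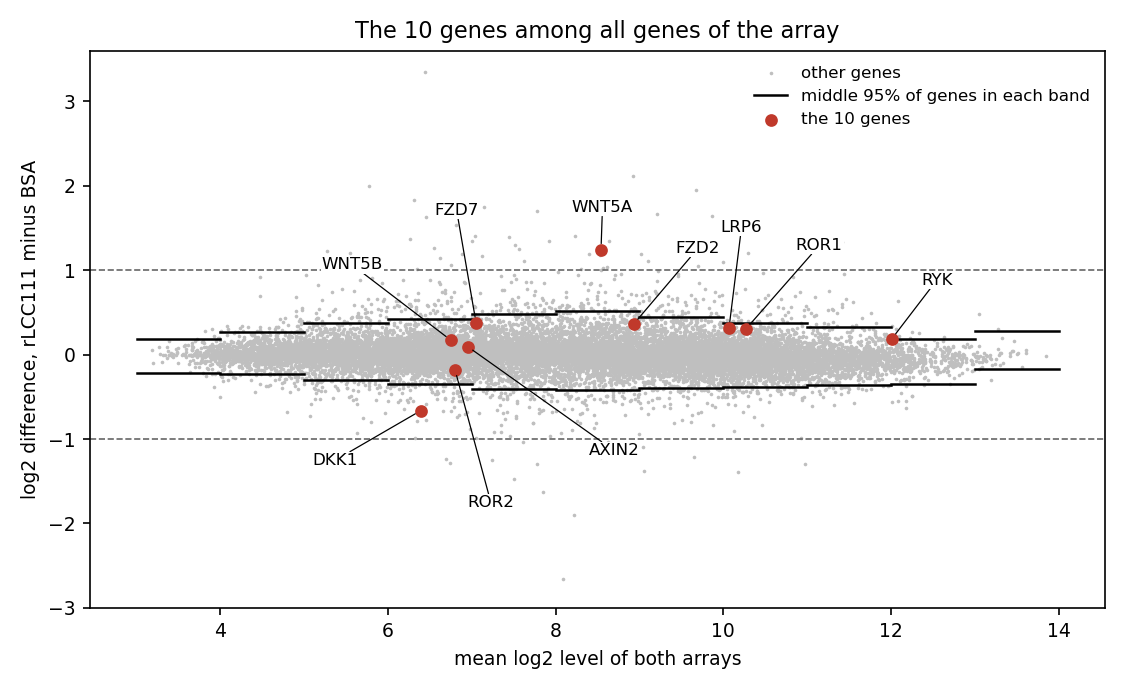
Log2 difference, rLCC111 minus BSA (vertical axis), against the mean log2 level of both arrays (horizontal axis) for 18417 genes, with the 10 genes in red. Black steps bound the middle 95% of genes in each band of level and dashed lines mark 2-fold; WNT5A lies above the upper dashed line, DKK1 lies below its band, and the other 8 lie within or at the edge of theirs.

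The direction of each of the 10 differences held under each scaling tried. WNT5A ranged from 1.16 to 1.24 and stayed past 2-fold, and DKK1 ranged from -0.75 to -0.66. ROR2 ranged from -0.26 to -0.18. The other 7 stayed above 0, with AXIN2 the closest to it.

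**Figure D3:**
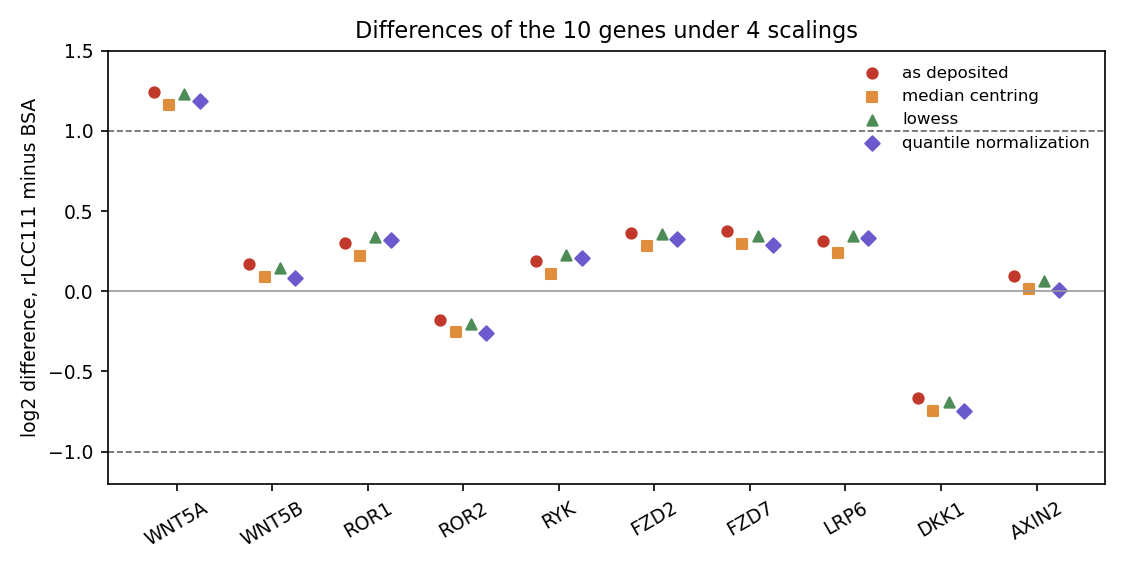
Log2 difference, rLCC111 minus BSA (vertical axis), of each of the 10 genes as deposited and after median centring, removal of a lowess trend and quantile normalization (4 markers per gene). Dashed lines mark 2-fold; the 4 WNT5A markers lie between 1.16 and 1.24, above the upper line, and the AXIN2 markers reach down to 0.0087.

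Downstream of the receptors, the genes with the largest differences were on the lists of planar cell polarity and of calcium signalling. Of 21 planar cell polarity genes measured, 3 were at least 0.5 log2 units higher on rLCC111, where 1.68% of all genes were, and no other differed by that much. CELSR1, an adhesion receptor at the core of cell polarity, was at 9.44 on rLCC111 and 8.71 on BSA, a fold of 1.66. DAAM1, a formin that links Dishevelled to actin, was at 7.89 on rLCC111 and 7.20 on BSA, a fold of 1.61. PRICKLE2, a cytoplasmic polarity protein, was at 8.71 on rLCC111 and 8.04 on BSA, a fold of 1.58. All 3 lay outside the middle 95% of genes of like level and stayed above 0.5 under the other scalings. DVL3, one of the Dishevelled adaptors that receive the Frizzled signal, had a fold of 1.27, inside the range of its level. PRICKLE1, the close relative of PRICKLE2, had a fold of 0.924. The list as a whole had 12 differences above 0 and 9 below 0 and a median of 0.05. After median centring the median was -0.03, where that of all genes was -0.08. It was 0.06 after removal of a lowess trend and 0.03 after quantile normalization.

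Of 23 calcium arm genes measured, 3 were at least 0.5 log2 units higher on rLCC111, where 1.68% of all genes were. No other differed by that much. NFATC2, a transcription factor that calcineurin switches on, was at 7.33 on rLCC111 and 6.47 on BSA, a fold of 1.82, with the BSA level below the limit of silent genes. ITPR2, a channel that releases calcium from the endoplasmic reticulum, was at 8.77 on rLCC111 and 7.92 on BSA, a fold of 1.80. PRKCA, protein kinase C alpha, was at 11.22 on rLCC111 and 10.69 on BSA, a fold of 1.44, and its difference was 0.45 after median centring. ITPR1, a second channel of the same family, had a difference of 0.50 that fell just short of the threshold, while ITPR3, the third, had a fold of 1.13. NFAT5 had a fold of 1.31 and was also outside the range of genes of like level. Among the genes with a lower level on rLCC111, PLCB4, a phospholipase C, had a fold of 0.809, PRKCD, another protein kinase C, 0.823, NFATC4, a relative of NFATC2, 0.837 and PPP3R1, the regulatory subunit of calcineurin, 0.856, all inside the range of genes of like level. The list held 11 differences above 0 and 12 below 0, with a median of 0.00.

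No gene of the other lists apart from WNT5A and DKK1 differed by 0.5 or more, where 2.68% of all genes did. Among 29 beta-catenin core genes, beta-catenin itself, CTNNB1, was at 12.72 on rLCC111 and 12.64 on BSA, AXIN1, the scaffold of the destruction complex, had a fold of 0.782, and PYGO1, a co-activator, 0.806. AXIN1 and PYGO1 were inside the range of genes of like level. Among 10 genes of WNT secretion, TRABD2A, a protease that inactivates WNT proteins, was at 7.41 on rLCC111 and 7.87 on BSA, a fold of 0.731 and outside the range of genes of like level. Among 9 genes of the R-spondin module, which sets the number of Frizzleds at the surface, the receptor gene LGR4 had the largest difference, at 9.39 on rLCC111 and 9.001 on BSA, a fold of 1.31. LGR4 was also inside the range of genes of like level.

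Over all 11 WNT lists 174 genes were measured, of which 87 had a difference above 0, 77 below 0 and 10 equal to 0, with a median of 0.00 as deposited and -0.08 after median centring, the same as for all genes. Of the 164 that are not among the 10 genes above, 6 were at least 0.5 log2 units higher, which is 3.66% against 1.68% of all genes, and no other differed by that much. These 6 are the 3 polarity genes and the 3 calcium genes named above. The lists were drawn with earlier results of these arrays known, and genes of a list are not replicates of the coating, so these shares describe 2 arrays.

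**Figure D4:**
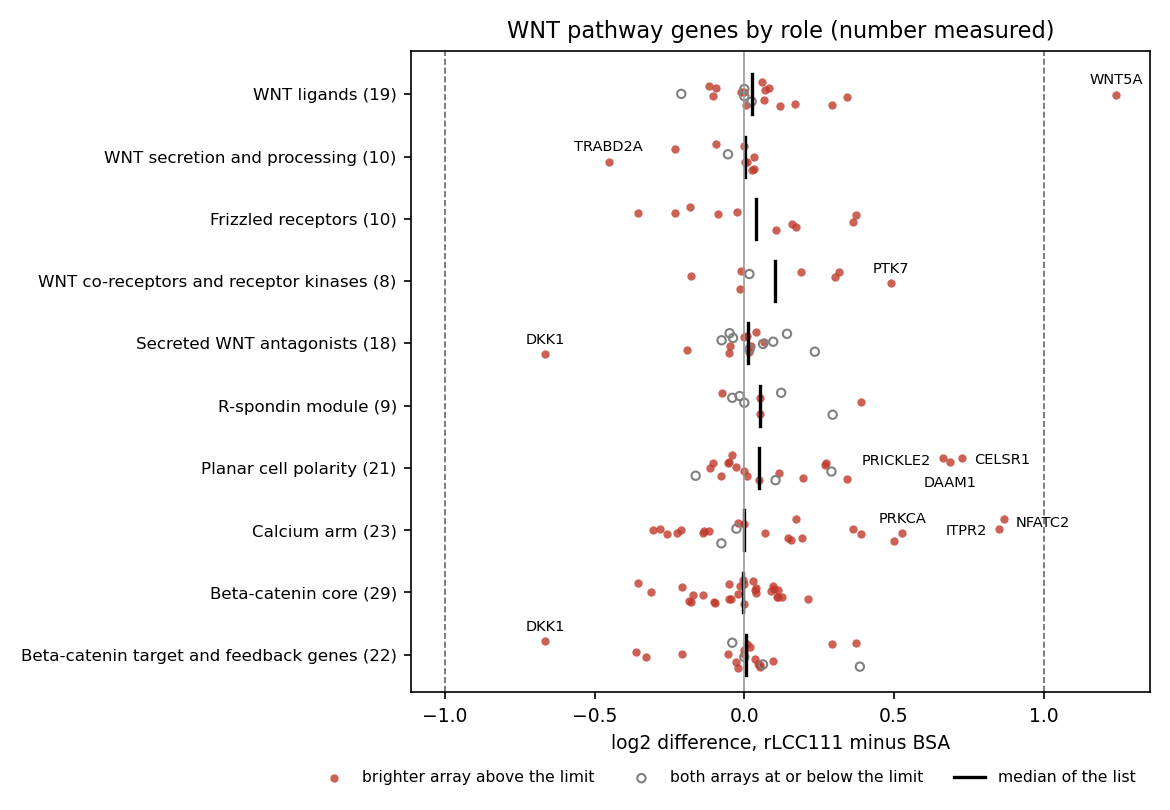
Log2 difference, rLCC111 minus BSA (horizontal axis), of each measured gene on 10 of the WNT lists (rows, number measured in brackets); filled points had a brighter array above 6.62, open points did not, black bars are list medians and dashed lines mark 2-fold. WNT5A is the point beyond 2-fold, and CELSR1, DAAM1, PRICKLE2, NFATC2, ITPR2 and PRKCA lie between 0.53 and 0.87.

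The array medians were 7.12 on rLCC111 and 7.04 on BSA over 33297 sequences. Of 9 markers of mesenchymal lines 6 were above the limit of silent genes on both arrays, while S100A4, THY1 and NT5E were below it on both. VIM, the intermediate filament of such cells, was at 12.98 on rLCC111 and 13.05 on BSA, and LGALS1 and CDH2 had folds of 0.884 and 1.02. The other 3 were higher on rLCC111 and outside the middle 95% of genes of like level. MMP2, a matrix protease, was at 12.08 on rLCC111 and 10.75 on BSA, a fold of 2.52. COL4A1, a basement membrane collagen, was at 10.95 on rLCC111 and 9.99 on BSA, a fold of 1.95, and FN1, fibronectin, had a fold of 1.40. Of all 9 markers, 5 had a difference above 0 and 4 below 0, with a median of 0.03. MMP2, COL4A1 and FN1 moved in the same direction as WNT5A, and their part in its difference was not tested.

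Markers of other cell types were partly above the limit. Of 8 epithelial markers 3 were above it on both arrays, KRT8 at 11.15 on rLCC111 and 11.22 on BSA, KRT18 at 11.51 on rLCC111 and 11.64 on BSA and KRT19 at 7.46 on rLCC111 and 7.30 on BSA, while EPCAM and CDH1 were below it. Of 8 endothelial markers 2 were above it, TIE1 at 10.39 on rLCC111 and 10.55 on BSA and CLDN5 at 8.38 on rLCC111 and 8.58 on BSA, while PECAM1, VWF and CDH5 were below it. Of 6 blood cell markers 1 was above it, CD14 at 6.69 on rLCC111 and 6.68 on BSA, while PTPRC was below it. Of 7 embryonic kidney or neural markers 4 were above it. NEFL, a neurofilament, was at 9.97 on rLCC111 and 10.39 on BSA and outside the range of genes of like level, LHX1 was at 8.04 on rLCC111 and 7.64 on BSA, and GFAP and PAX2 had folds of 0.952 and 0.924.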

How the data were processed

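Total RNA of HT1080 cells from rLCC111-coated and BSA-coated wells was hybridised to Affymetrix whole-transcript arrays, 1 array per coating. The deposited log2 levels were made by the authors with RMA in Affymetrix Expression Console, which corrects background, normalizes between arrays and summarises probes (tools as listed in the submitters' processing notes). Its settings, software version and array genome build were not given in the sources used here. Although the methods name limma and a false discovery rate, both need replicates, and no test was run. The number of arrays limits the precision.

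Of 33297 sequences, 19460 have 1 symbol in the platform's annotation, 1754 several and 12083 none. Symbols were updated by gene identifier to the RefSeq table of GRCh38.p14. Where several one-symbol sequences named a gene, the brightest by mean level stood for it, and 18417 genes resulted. Calls were a difference of at least 1 (2-fold) or 0.5 log2. The middle 95% of differences was taken in bands of mean level 1 log2 unit wide.

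The 10 genes and the 11 WNT lists were chosen with earlier results of these data known. Named are the 10 genes, in each WNT list genes at least 2-fold different, the 4 largest differences above the limit and the 2 highest levels, of which examples are given, and the 3 genes nearest to WNT5A by Euclidean distance. NFAT5, PLCB4, PRKCD, NFATC4, PPP3R1, TNFRSF19 and MMP7 were added outside this rule after their values were seen. Of the 11 WNT lists, 1 is not reported here on its own, and its genes are in the totals.

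Alternatives were median centring, a lowess trend (span 0.2, 3 iterations), quantile normalization, filters on dim genes, the mean of a gene's sequences and sequences with several symbols. Scaling and counting were also run on simulated data with planted differences larger than the 2-fold threshold. That checks the arithmetic and says nothing about any result above. Python 3.11.15 was used with numpy 2.4.6, pandas 2.3.3, statsmodels 0.14.6 and matplotlib 3.10.9.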

Additional observations from a re-analysis of the deposited data

How the results depend on the processing

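The differences of the 10 genes kept their direction, and WNT5A was the 1 gene of the 10 at least 2-fold different, under median centring, lowess, quantile normalization and the use of sequences with several symbols. The mean of a gene's sequences changed nothing for them, since each has 1 sequence. None of the 10 differences, nor the median of any of the 11 WNT lists, moved by as much as 0.18 log2 units, the SD of the differences of 379 sensory receptor genes. This is a weak check. Median centring lowers every difference by the same 0.08, so it could not reach 0.18. The deposited list medians and the differences of WNT5B, ROR2 and AXIN2 were themselves smaller than 0.18 in size, so their full loss would not have counted. With the arrays centred on their medians, the list medians of ligands, secretion, Frizzleds, antagonists, the R-spondin module, planar cell polarity and target genes turned below 0, and that of all genes was -0.08. Genes at least 2-fold lower numbered 16 as deposited and 25 after median centring. Genes at least 2-fold higher numbered 44, and 26 where both arrays had to be above the limit of silent genes. No paired analysis was possible because each coating has 1 array, and no replicate could be left out. The levels of WNT5B, ROR2, DKK1, FZD7 and AXIN2 lie close to the limit of silent genes.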

Other observations

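Levels identical on both arrays, to within 1e-05 log2 units, were found for 1325 of 18417 genes, or 7.19%. Among the 379 sensory receptor genes they made up 20.6%, and among the 174 genes of the WNT lists 5.75%, or 10 genes. These 10 are the ligand genes WNT8B, WNT9A and WNT16, TRABD2B, APCDD1, LGR5, CDC42, GSK3A, BCL9 and SP5. None of the 10 genes of WNT5A signalling was among them.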
